A study of Mus musculus with 8 samples.

Results

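The 10 genes described here mark T cells and cytotoxic lymphocytes and were taken by symbol from the 48709 genes of a raw mRNA count table of 8 mouse lung tumors. They are *Cd3d*, *Cd3e* and *Cd3g*, which encode signaling chains of the T cell receptor complex, the coreceptor genes *Cd4*, *Cd8a* and *Cd8b1*, the regulatory T cell factor gene *Foxp3*, and *Nkg7*, *Gzma* and *Gzmb*, which encode proteins of cytotoxic granules. The *K-Ctrl* and *K-Setd2KO* groups had 4 tumors each. All were started in the lungs of mice of the *K* model, of a mixed genetic background that includes B6J, with the lentivirus LentiCRISPRv2Cre, which carries Cre, Cas9 and 1 guide RNA, so that both groups received Cre and Cas9. The *K-Ctrl* virus carried a guide against *GFP*, a sequence foreign to the mouse, and the *K-Setd2KO* virus carried a guide against *Setd2*, which encodes a histone methyltransferase. The tumors were low grade adenomas matched for stage by histology and were sequenced whole after freezing, with no sorting of cells. Infected cells alone carry the edits, so T cells in these tumors came from the host. The labels give no age and do not say whether any tumors came from the same mouse, so the p-values below measure the spread between these samples. The design text speaks of tumors while the extraction text of the labels speaks of cell lines, and this was not resolved.

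A T cell recognizes peptides on other cells through its T cell receptor, which cannot signal without the CD3 chains. CD4 marks helper and regulatory T cells and, in mice, some myeloid cells, whereas CD8 marks the cytotoxic lineage, and FOXP3 is the defining transcription factor of regulatory T cells. Cytotoxic T cells and natural killer cells kill targets by releasing granules that hold perforin and granzymes, and a lung tumor contains all of these cells as a minority beside tumor epithelium, macrophages and vessels.

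The shallowest library, *K-Setd2KO* 4, held 5806599 counts and the deepest, *K-Ctrl* 3, held 21290402 (3.67-fold more). *Setd2* mRNA itself was nearly level, at 132 to 153 CPM in *K-Ctrl* and 121 to 153 CPM in *K-Setd2KO* (CPM, counts divided by the TMM-scaled library size and expressed on the usual CPM scale), so mRNA abundance did not check the knockout labels. By *Xist* and Y-linked mRNA, *K-Ctrl* 2 and *K-Setd2KO* 1, 2 and 4 were female and the other 4 tumors male. 2 tumors stood apart in the genes studied here. *K-Ctrl* 2 had the highest value among controls for 8 of the 10 genes, and *K-Setd2KO* 1 the highest of its group for 9 of 10, so that fits are also given without them. All 10 genes had few counts, between 57 in all for *Gzmb* and 697 for *Cd4*, and counting error alone was therefore wide for the lowest values.

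The 3 CD3 genes lie together on chromosome 9 of the GRCm38 genome. *Cd3g* (chr9:44969572-44980431, minus strand) and *Cd3d* (chr9:44981793-44987052, plus strand) stand head to head with 1361 bases between them, and *Cd3e* (chr9:44998743-45009590, minus strand) follows 11690 bases beyond *Cd3d*. *Cd8b1* (chr6:71322788-71337494) and *Cd8a* (chr6:71373427-71379173) are also neighbors, 35932 bases apart on the plus strand, and *Cd4* (chr6:124864692-124888221, minus strand) is on the same chromosome. The other genes are single loci, with *Foxp3* on the X chromosome (chrX:7579676-7595243, plus strand), *Nkg7* at chr7:43437073-43438249, plus strand, *Gzma* at chr13:113093825-113100979, minus strand, and *Gzmb* at chr14:56258856-56262260, minus strand. *Foxp3* alone overlapped other annotated genes. These were *Flicr* on its own strand and *Gm36995* and *Ccdc22* on the opposite strand, and since it is not known whether counting used the read strand, its counts may include theirs.

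RefSeq promoter windows (GRCm38.p6) were found for 8 of the 10 genes, all but *Cd4* and *Cd8b1*. The 250 bases before the RefSeq start of the 3 clustered CD3 genes and the 2 granzyme genes are shown because these are the genes that share a locus or a function but had different levels across tumors. Sequences are written 5′ to 3′ along the gene, and capitals mark matches, on either strand, to the core letters of motifs of lymphocyte transcription factors: Runx (TGTGGT), Ets (AGGAAG), Tcf/Lef (CTTTGA), AP-1 (TGANTCA) and NFAT (TGGAAA). The windows are chr9:44980432-44980681 for *Cd3g*, chr9:44981536-44981785 for *Cd3d*, chr9:45009612-45009861 for *Cd3e*, chr13:113100982-113101231 for *Gzma* and chr14:56262335-56262584 for *Gzmb*.
Cd3g: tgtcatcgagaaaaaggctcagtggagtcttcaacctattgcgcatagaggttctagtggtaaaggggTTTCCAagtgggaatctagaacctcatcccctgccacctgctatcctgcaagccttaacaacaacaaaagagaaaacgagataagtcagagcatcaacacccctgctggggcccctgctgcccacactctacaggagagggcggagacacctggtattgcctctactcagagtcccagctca
Cd3d: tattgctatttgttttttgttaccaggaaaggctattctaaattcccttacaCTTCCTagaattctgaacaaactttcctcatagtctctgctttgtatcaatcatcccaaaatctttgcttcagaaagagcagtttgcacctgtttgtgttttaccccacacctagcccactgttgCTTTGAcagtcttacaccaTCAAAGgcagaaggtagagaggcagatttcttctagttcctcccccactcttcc
Cd3e: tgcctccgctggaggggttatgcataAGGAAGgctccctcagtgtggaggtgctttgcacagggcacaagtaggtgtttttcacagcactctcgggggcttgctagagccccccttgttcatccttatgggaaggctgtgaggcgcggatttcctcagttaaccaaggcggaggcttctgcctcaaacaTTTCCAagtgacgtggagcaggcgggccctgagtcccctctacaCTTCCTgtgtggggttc
Gzma: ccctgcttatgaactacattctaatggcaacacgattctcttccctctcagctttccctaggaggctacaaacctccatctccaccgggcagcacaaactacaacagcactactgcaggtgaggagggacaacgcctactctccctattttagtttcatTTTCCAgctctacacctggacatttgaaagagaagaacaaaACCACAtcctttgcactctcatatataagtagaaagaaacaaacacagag
Gzmb: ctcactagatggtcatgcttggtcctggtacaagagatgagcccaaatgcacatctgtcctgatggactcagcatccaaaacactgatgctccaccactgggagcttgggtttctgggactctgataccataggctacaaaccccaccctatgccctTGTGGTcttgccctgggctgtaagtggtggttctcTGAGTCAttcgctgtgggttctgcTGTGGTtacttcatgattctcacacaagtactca

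The Runx letters occurred in the windows of *Gzma*, *Gzmb* and *Nkg7* and in none of the CD3 windows, against 14.0% of all 32851 promoter windows (the same 250 bases before the start). *Gzmb* held them at 2 places, 93 to 88 and 34 to 29 bases before its start, and between these it held the AP-1 letters TGAGTCA, a motif found in 6.75% of windows. The Tcf/Lef letters occurred in *Cd3d* on both strands, 73 to 68 and 54 to 49 bases before the start, and in 13.8% of all windows. The Ets letters were found in *Cd3d*, *Cd3e*, *Nkg7* and *Foxp3* (29.5% of all windows), and the NFAT letters in *Cd3g*, *Cd3e*, *Gzma* and *Foxp3* (18.6%). E-box letters (CANNTG), which are present in 66.2% of windows and so common that they are not capitalized, occurred in the windows of all 8 genes, and TATAAA (12.4%) only in *Foxp3* among the 8. The overlapping letters of different motifs were not resolved, and a match describes the sequence and not binding.

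All 10 genes had a lower mean in *K-Setd2KO* than in *K-Ctrl*, but none was called lower or higher in the main test, edgeR's quasi-likelihood test with an adjusted p under 0.05. The test covered 14929 genes that passed a filter on low counts, of which 7.74% were called lower in *K-Setd2KO* and 4.97% higher. 7 of the 10 genes passed the filter, while *Nkg7*, *Gzma* and *Gzmb* did not and were not tested there. The 7 log2 fold changes were all negative, with a median of -1.40 against 0.03 over all tested genes, and 2 of them, *Cd3e* and *Cd8a*, had an unadjusted p under 0.05. For all 10 genes the 2 groups overlapped, whereas 11.2% of tested genes had all 4 controls above all 4 *K-Setd2KO* tumors. Because whole tumors were sequenced, fewer T cells and less T cell mRNA per cell cannot be told apart. The summed level of the 10 genes was 18.8, 86.5, 19.7 and 32.3 CPM in *K-Ctrl* 1 to 4 and 32.0, 6.73, 3.41 and 12.7 CPM in *K-Setd2KO* 1 to 4. *K-Setd2KO* 1 thus stood at the level of the controls, and the other 3 *K-Setd2KO* tumors were below every control.

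**Figure D1:**
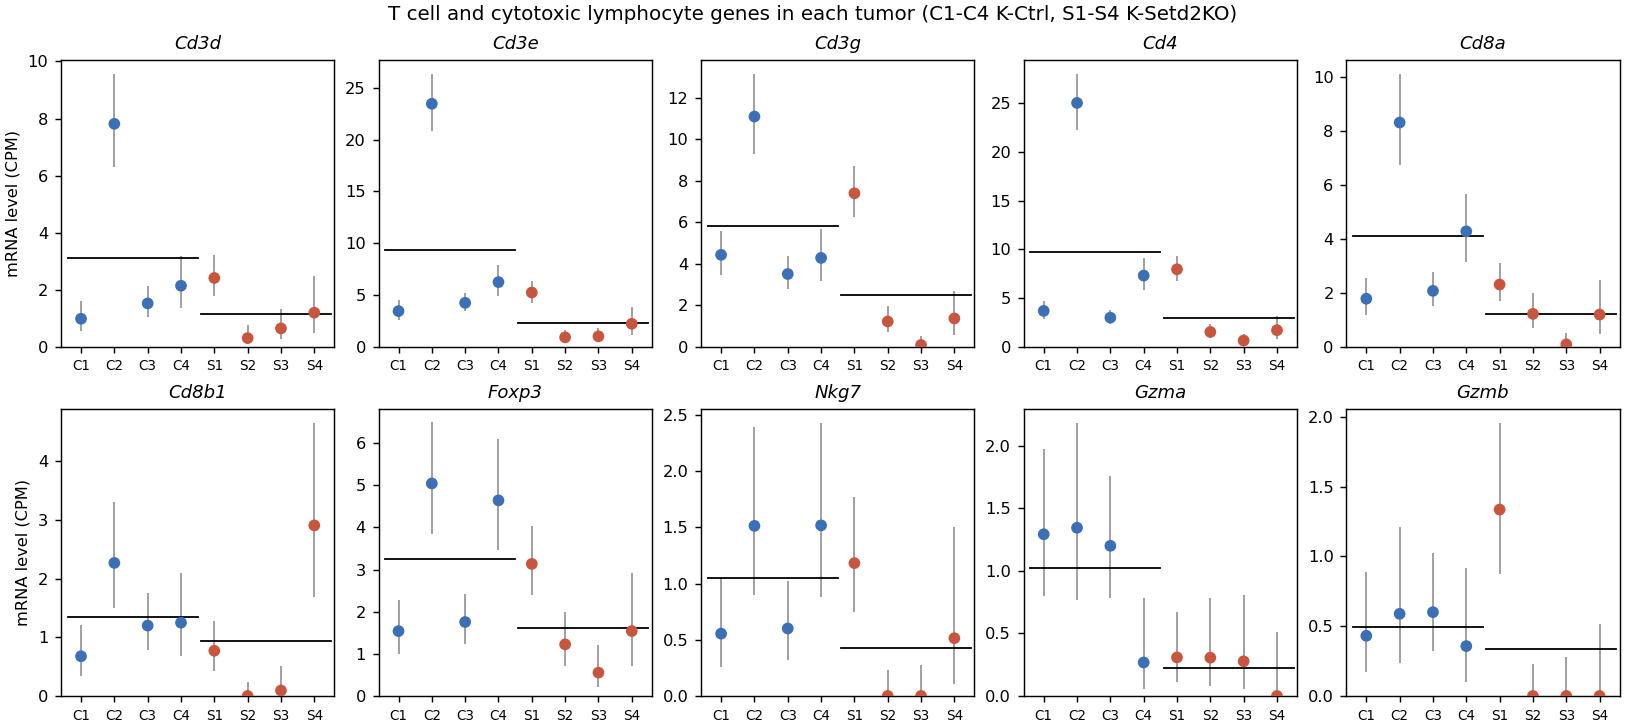
mRNA level (CPM, linear axes from 0) of each of the 10 genes in 4 *K-Ctrl* tumors (C1 to C4, blue) and 4 *K-Setd2KO* tumors (S1 to S4, red), with the group mean as a black line; grey bars are exact 95% Poisson intervals of the count, or for a count of 0 the range up to 3 counts, and cover counting error only. C2 is highest for *Cd3e* at 23.4 CPM, and S1 lies above S2, S3 and S4 for every gene but *Cd8b1*.

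*Cd3e*, the CD3 chain most used to mark T cells, had the lowest unadjusted p of the 7 genes tested in the main fit. It was at 3.45, 23.4, 4.25 and 6.25 CPM in *K-Ctrl* 1 to 4 and at 5.24, 0.918, 1.02 and 2.22 CPM in *K-Setd2KO* 1 to 4. *K-Setd2KO* 1 was inside the control range and its 3 group mates were below it. The means were 9.35 ± 9.47 and 2.35 ± 2.02 CPM (SD, n = 4 each), and the log2 fold change was -1.95 ± 0.77 (SE, edgeR adjusted p = 0.130). DESeq2, in which 10.4% of 18876 genes were called lower, gave -1.98 with an adjusted p of 0.0318, so the call for *Cd3e* depended on the tool.

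*Cd3d* encodes the delta chain, which pairs with epsilon. It was at 0.985, 7.82, 1.52 and 2.14 CPM in *K-Ctrl* 1 to 4 and at 2.41, 0.306, 0.646 and 1.20 CPM in *K-Setd2KO* 1 to 4. *K-Ctrl* 2 exceeded the median of the other controls 5.13-fold, and *K-Setd2KO* 4 lay above *K-Ctrl* 1. The means were 3.12 ± 3.17 and 1.14 ± 0.925 CPM (SD, n = 4 each) and the log2 fold change was -1.40 ± 0.79 (SE, edgeR adjusted p = 0.271). Without *K-Ctrl* 2 it was -0.40, less than its SE of 0.68.

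*Cd3g*, the gamma chain gene that faces *Cd3d*, did not have the same profile. It was at 4.43, 11.1, 3.51 and 4.28 CPM in *K-Ctrl* 1 to 4 and at 7.40, 1.22, 0.0923 and 1.37 CPM in *K-Setd2KO* 1 to 4. *K-Setd2KO* 1 exceeded 3 of the 4 controls, and *K-Setd2KO* 3 had a single count of *Cd3g* beside 7 of *Cd3d* and 11 of *Cd3e*. The means were 5.83 ± 3.53 and 2.52 ± 3.30 CPM (SD, n = 4 each) and the log2 fold change was -1.14 ± 0.89 (SE, edgeR adjusted p = 0.424). That fold change was -0.64 without *K-Ctrl* 2 and -2.73 without *K-Setd2KO* 1. Across the 8 tumors Pearson's r of log2 CPM was 0.970 between *Cd3d* and *Cd3e* and 0.743 between the adjacent *Cd3d* and *Cd3g*, as a description over libraries that share depth and scaling.

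Among the coreceptor genes, *Cd4* and *Cd8a* were, like the CD3 genes, highest in *K-Ctrl* 2 among controls and in *K-Setd2KO* 1 within its group. *Cd4*, the coreceptor of helper T cells, was at 3.69, 25.0, 3.00 and 7.32 CPM in *K-Ctrl* 1 to 4 and at 7.96, 1.53, 0.646 and 1.71 CPM in *K-Setd2KO* 1 to 4. *K-Setd2KO* 1 held 80.7% of the *Cd4* counts of its group and *K-Ctrl* 2 held 59.0% of those of the controls. The means were 9.76 ± 10.4 and 2.96 ± 3.36 CPM (SD, n = 4 each) and the log2 fold change was -1.66 ± 0.89 (SE, edgeR adjusted p = 0.248). That fold change was -0.60 without *K-Ctrl* 2 and -2.92 without *K-Setd2KO* 1.

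*Cd8a* encodes the alpha chain of CD8, which is also found on some dendritic cells. It was at 1.79, 8.32, 2.08 and 4.28 CPM in *K-Ctrl* 1 to 4 and at 2.31, 1.22, 0.0923 and 1.20 CPM in *K-Setd2KO* 1 to 4. *K-Setd2KO* 1 exceeded 2 controls and the other 3 were below all. The means were 4.12 ± 3.02 and 1.21 ± 0.906 CPM (SD, n = 4 each) and the log2 fold change was -1.72 ± 0.76 (SE, edgeR adjusted p = 0.165).

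*Cd8b1*, the beta chain restricted to T cells, was highest in *K-Setd2KO* 4. It was at 0.677, 2.27, 1.20 and 1.25 CPM in *K-Ctrl* 1 to 4 and at 0.770, 0, 0.0923 and 2.91 CPM in *K-Setd2KO* 1 to 4. *K-Setd2KO* 4, the shallowest library, had 17 counts of *Cd8b1*, more than its 7 of *Cd8a*, while *K-Setd2KO* 2 had 0 beside 16 of *Cd8a*. The log2 fold change was -0.69 ± 1.04 (SE, edgeR adjusted p = 0.696). It rested on single tumors, at -2.04 ± 0.95 without *K-Setd2KO* 4 (adjusted p = 0.198), -0.23 without *K-Setd2KO* 2, -0.27 without *K-Setd2KO* 3 and -0.31 without *K-Ctrl* 2. Chromosome 6, which carries *Cd4*, *Cd8a* and *Cd8b1*, had a raised level over its 839 tested genes in *K-Setd2KO* 1, 3 and 4, with median log2 values 0.33, 0.32 and 0.38 above the controls against -0.03 in *K-Setd2KO* 2. The part of this shift in the 3 coreceptor genes was not tested.

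*Foxp3* had the smallest SE of the 7 tested genes. It was at 1.54, 5.04, 1.75 and 4.64 CPM in *K-Ctrl* 1 to 4 and at 3.13, 1.22, 0.554 and 1.54 CPM in *K-Setd2KO* 1 to 4. *K-Setd2KO* 1 again lay inside the control range, and *K-Setd2KO* 4 was level with *K-Ctrl* 1. The means were 3.24 ± 1.85 and 1.61 ± 1.09 CPM (SD, n = 4 each) and the log2 fold change was -0.96 ± 0.60 (SE, edgeR adjusted p = 0.313).

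The cytotoxic granule genes had 57 to 83 counts each over all 8 tumors. *Nkg7*, a granule membrane protein of cytotoxic T and natural killer cells, was at 0.554, 1.51, 0.600 and 1.52 CPM in *K-Ctrl* 1 to 4 and at 1.18, 0, 0 and 0.513 CPM in *K-Setd2KO* 1 to 4. *K-Setd2KO* 1 held 88.5% of the counts of its group. A count of 0 allows up to 3 counts, which is 0.229 CPM in *K-Setd2KO* 2 and 0.277 CPM in *K-Setd2KO* 3. The difference in mean log2 CPM was -1.57 (two-sided exact permutation p = 0.114, n = 4 each).

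The granzymes, serine proteases that cytotoxic cells deliver into their targets, differed from each other. *Gzma* was at 1.29, 1.34, 1.20 and 0.268 CPM in *K-Ctrl* 1 to 4 and at 0.308, 0.306, 0.277 and 0 CPM in *K-Setd2KO* 1 to 4. *K-Setd2KO* 1 lay with its own group here, below 3 controls, and *K-Ctrl* 4 rather than *K-Ctrl* 2 stood apart, with 3 counts. The difference in mean log2 CPM was -1.64 (two-sided exact permutation p = 0.114, n = 4 each). *Gzmb* was at 0.431, 0.588, 0.600 and 0.357 CPM in *K-Ctrl* 1 to 4 and at 1.34, 0, 0 and 0 CPM in *K-Setd2KO* 1 to 4. All 26 *Gzmb* counts of the group came from *K-Setd2KO* 1, which was above every control, and the 3 tumors without a count allowed up to 0.229, 0.277 and 0.513 CPM. The difference was -1.28 (two-sided exact permutation p = 0.143, n = 4 each). The smallest p that 4 against 4 tumors can give is 0.0286, and none of the 10 genes reached it; the lowest was 0.0857, for *Cd3e* and *Cd8a*. With no filter on low counts, edgeR gave log2 fold changes of -1.18 ± 0.99 for *Nkg7*, -2.02 ± 0.77 for *Gzma* and -0.32 ± 1.12 for *Gzmb* (SE). The edgeR adjusted p-values were 0.510 for *Nkg7*, 0.154 for *Gzma* and 0.890 for *Gzmb*.

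The 2 tumors that stood apart pulled the fold changes of the tested genes in opposite directions, except that of *Cd8b1*. The *Cd8b1* log2 fold change was -0.69 in the main fit, -0.31 without *K-Ctrl* 2 and -0.63 without *K-Setd2KO* 1. Without *K-Ctrl* 2 the 7 tested genes had a median of -0.64 (log2 fold change). Without *K-Setd2KO* 1 the median was -2.24 over the 8 then tested, with *Gzma* added through the controls alone. Without both the median was -1.71. *Cd3e* was at -0.95 ± 0.62 without *K-Ctrl* 2 (SE, edgeR adjusted p = 0.384). It was at -2.80 ± 0.81 without *K-Setd2KO* 1 (edgeR adjusted p = 0.0664) and -1.79 ± 0.50 without both (edgeR adjusted p = 0.0832). None of the 10 genes was called in these 3 fits. By the listed values, each control exceeded *K-Setd2KO* 2, 3 and 4 for 6 of the 10 genes, namely *Cd3e*, *Cd3g*, *Cd4*, *Cd8a*, *Nkg7* and *Gzmb*, of which the first 4 are among the 7 that were tested; over all tested genes the share was 13.6%. *K-Setd2KO* 1 was set aside here after its values were seen, so the count is a description. For *Gzmb* the limit of 0.513 CPM in *K-Setd2KO* 4 is above *K-Ctrl* 1 and 4. For *Nkg7* the interval of its 3 counts in that tumor includes the values of *K-Ctrl* 1 and 3 (0.554 and 0.600 CPM). The intervals of that tumor also reach 3.80 CPM for *Cd3e*, above *K-Ctrl* 1, and 3.15 CPM for *Cd4*, above *K-Ctrl* 3. For *Cd8a* the interval reaches 2.47 CPM, above *K-Ctrl* 1 and 3. The order could therefore not be told at this depth for any of these genes. Only for *Cd3g*, up to 2.70 CPM, did the interval stay below every control.

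Sex moved with both tumors and with genotype, since 1 control and 3 *K-Setd2KO* tumors were female. With sex as a term, edgeR called 3 of the 7 tested genes lower, where 5.25% of all tested genes were called lower. *Cd8a* was at -3.03 ± 0.64 (log2 fold change ± SE, adjusted p = 0.0297), *Cd3e* at -2.67 ± 0.57 (adjusted p = 0.0301) and *Cd4* at -2.74 ± 0.67 (adjusted p = 0.0459). Within females, 3 *K-Setd2KO* tumors differed from *K-Ctrl* 2 in mean log2 CPM by -1.22 (*Gzmb*) to -3.31 (*Cd3e*), and within males *K-Setd2KO* 3 differed from 3 controls by -1.04 (*Cd3d*) to -4.14 (*Cd3g*). Each of these rests on 1 tumor in 1 group and was not tested. The female control was also the tumor with the most T cell mRNA, so the sex term and that tumor cannot be told apart.

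**Figure D2:**
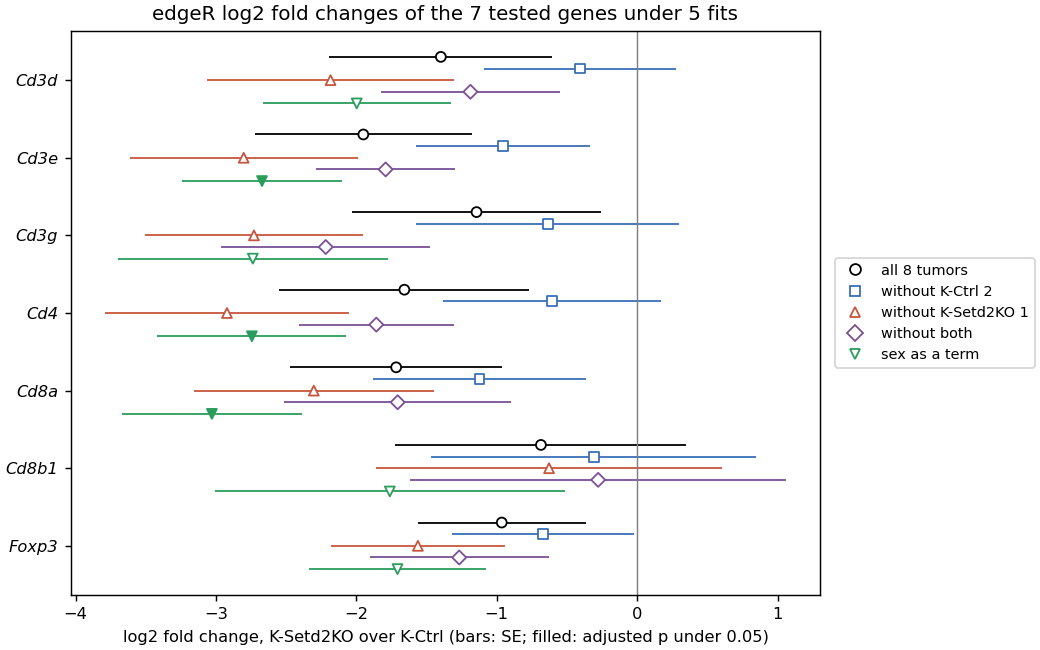
Log2 fold change (*K-Setd2KO* over *K-Ctrl*, x axis, bars are SE) of the 7 tested genes in edgeR fits with all 8 tumors, without *K-Ctrl* 2, without *K-Setd2KO* 1, without both and with sex as a term; filled symbols have an adjusted p under 0.05. All values are below 0, and the filled symbols are *Cd3e*, *Cd4* and *Cd8a* with sex as a term.

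Levels between genes were compared as CPM per kilobase of summed exon length. In *K-Ctrl* the order by mean was *Cd3e* (6.51 ± 6.60), *Cd3g* (5.45 ± 3.30), *Cd4* (2.42 ± 2.57), *Cd3d* (2.36 ± 2.39), *Gzma* (1.17 ± 0.580), *Nkg7* (1.14 ± 0.593), *Cd8a* (1.13, range 0.491 to 2.29), *Cd8b1* (0.910 ± 0.449), *Foxp3* (0.813 ± 0.465) and *Gzmb* (0.348 ± 0.0843) CPM per kilobase (SD, n = 4). Only 2 steps in this order held in all 4 controls, *Cd3g* over *Cd4* and *Foxp3* over *Gzmb*, and the other neighbors exchanged places in at least 1 tumor. In *K-Setd2KO* *Cd3g* was first at 2.36 ± 3.08 CPM per kilobase and *Gzmb* again last at 0.235 ± 0.471 (SD, n = 4). The only step there that held in all 4 tumors was *Cd3e* over *Cd3d*.

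Ratios of counts within a tumor do not depend on library scaling and ask whether the balance of T cell classes differed. None of 6 ratios passed the test between the groups (two-sided exact permutation tests, adjusted p = 0.943 for each over the 6, n = 4 each). The log2 ratio of *Cd8a* to *Cd4* averaged -0.98 ± 0.46 in *K-Ctrl* and -1.22 ± 0.98 in *K-Setd2KO*, and that of *Cd8b1* to *Cd8a* was -1.43 ± 0.49 and -1.34 ± 2.72 (SD). The ratio of *Foxp3* to *Cd4* was -1.25, -2.30, -0.77 and -0.65 in *K-Ctrl* 1 to 4 and -1.34, -0.31, -0.21 and -0.14 in *K-Setd2KO* 1 to 4. It was thus highest in the 3 *K-Setd2KO* tumors with the fewest *Cd4* counts, and the difference of 0.74 had an unadjusted exact permutation p of 0.200.

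*Cd3e* was also set against *Ptprc*, which encodes the leukocyte antigen CD45. This log2 ratio was -5.68, -3.88, -5.89 and -4.52 in *K-Ctrl* 1 to 4 and -3.54, -5.56, -5.76 and -4.55 in *K-Setd2KO* 1 to 4. *K-Setd2KO* 1 had the most *Cd3e* per *Ptprc* of all 8 tumors and *K-Ctrl* 2 the next most, while the other 6 tumors of both groups overlapped. The group difference was 0.14. The log2 ratio of *Gzmb* to *Cd3e* averaged -3.72 ± 1.13 in *K-Ctrl* and -3.97 ± 1.35 in *K-Setd2KO*, and that of *Gzma* to *Gzmb* was 0.82 ± 0.82 and 0.99 ± 2.46 (SD). Both rest on the 0.5 added where *Gzmb* had 0 counts, in 3 tumors. In *K-Setd2KO* 1 *Gzma* was below *Gzmb*, at -2.03, against -0.36 to 1.52 in the controls.

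**Figure D3:**
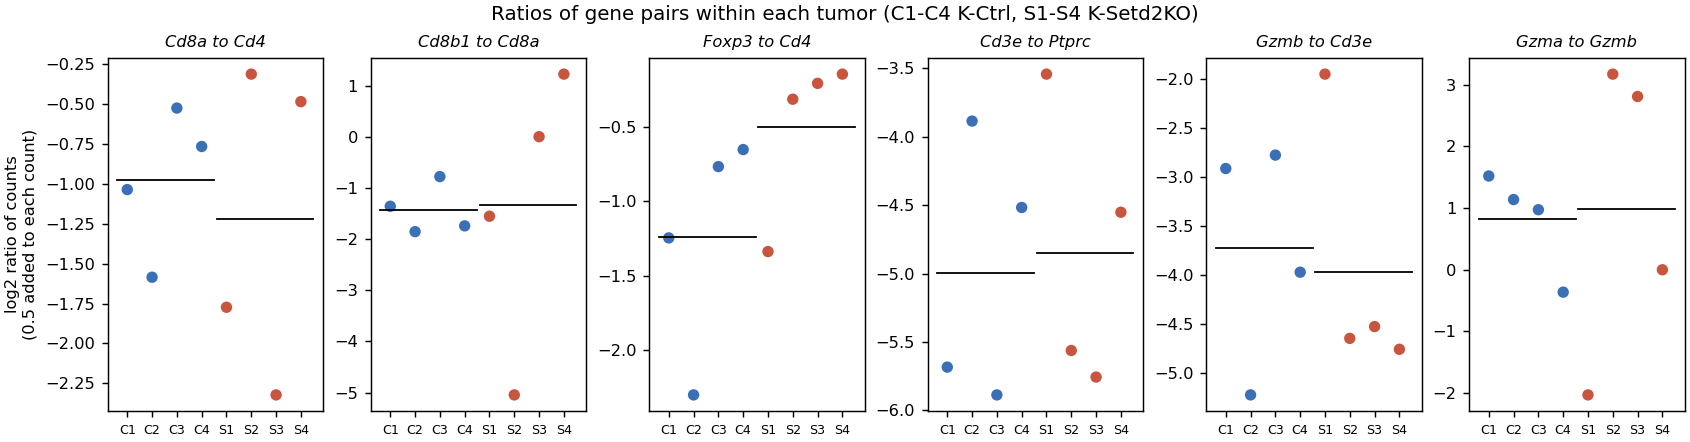
Log2 ratio of counts (y axis, 0.5 added to each count) for 6 pairs of genes in each *K-Ctrl* (C1 to C4, blue) and *K-Setd2KO* tumor (S1 to S4, red), with group means as black lines. S1 is the highest point for *Cd3e* to *Ptprc* (-3.54) and for *Gzmb* to *Cd3e* (-1.95), and the groups overlap in every panel.

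Other genes of the T cell receptor pathway were described by their counts and medians beside the background of 7.74% called lower and a median log2 fold change of 0.03. Of 8 receptor constant genes 6 were tested, all 6 had negative log2 fold changes (median -1.48), and *Trdc*, the delta constant gene of gamma delta T cells, was called. *Trdc* spanned 0.969 to 1.60 CPM in *K-Ctrl* and 0.153 to 0.360 CPM in *K-Setd2KO*, (-2.38 ± 0.47, edgeR adjusted p = 0.0148). It passed the filter on low counts (0.788 CPM, before scaling, in at least 4 tumors) through the controls alone, so that it could be tested only because it was high there, and its call is no support for the list. In contrast *Trac*, the alpha constant gene, was at 3.02, 14.8, 3.55 and 4.46 CPM in *K-Ctrl* 1 to 4 and at 4.06, 1.07, 0.461 and 0.856 CPM in *K-Setd2KO* 1 to 4. It too was highest in *K-Ctrl* 2 among controls and in *K-Setd2KO* 1 within its group, and it was not called (-1.92 ± 0.75, adjusted p = 0.126).

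Of 20 receptor signaling genes 17 were tested, the median log2 fold change was -1.65 and 4 were called lower. Among these were *Cd2*, an adhesion receptor of T and natural killer cells, and *Lat* and *Lcp2*, adaptors below the receptor. *Cd2* was at 20.4 to 44.5 CPM in *K-Ctrl* and 4.25 to 9.35 CPM in *K-Setd2KO* (-2.53 ± 0.33, edgeR adjusted p = 0.00574). This gene had 26 to 965 counts per tumor, against 11 to 279 for *Cd3e*. *Cd247*, the zeta chain gene, was at -1.78 ± 0.71 and was not called (adjusted p = 0.130).

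Of 12 T cell transcription factor genes 10 were tested, with a median of -0.78, and *Satb1*, *Tcf7* and *Bcl11b* were called lower. *Satb1*, a chromatin organizer, had the smallest p and fell from 4.52 to 8.40 CPM in *K-Ctrl* to 0.831 to 2.05 CPM in *K-Setd2KO* (-2.27 ± 0.36, adjusted p = 0.00834). Among 12 homing and survival receptor genes 11 were tested, the median was -1.99, and *Itgal*, *Ccr7*, *S1pr1* and *Itgae* were called lower. *Itgal*, the LFA-1 alpha chain found on most leukocytes, was at 40.2 to 86.8 CPM in *K-Ctrl* and 11.7 to 15.7 CPM in *K-Setd2KO* (-2.16 ± 0.24, adjusted p = 0.00453). *S1pr1* is also strongly expressed by endothelium. *Ccr7*, which guides naive T cells and mature dendritic cells to lymphoid tissue, had 8, 5, 4 and 1 counts in *K-Setd2KO* 1 to 4 and 26 to 83 in the controls, so that *K-Setd2KO* 1 was not raised there. It too passed the filter through the controls alone, and its call is given as a description.

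None of 9 regulatory T cell genes was called (median -0.59). The smallest p was that of *Itgb8*, an integrin that activates TGF-beta (-1.44 ± 0.58, SE, edgeR adjusted p = 0.137). Of 14 cytotoxic effector genes 6 were tested and none was called (median -1.01). *Ccl3*, a chemokine of activated lymphocytes and macrophages, came closest at -3.19 ± 0.92 (adjusted p = 0.0532). Of 15 natural killer cell genes 5 were tested and 3 were called lower (median -1.37), namely *Tyrobp* (-1.34 ± 0.19, adjusted p = 0.00643), *Klrk1*, which passed the filter through the controls alone, and *Cd244a*. *Tyrobp* is an adaptor that myeloid cells also express. The defining natural killer genes *Ncr1*, *Klrb1c* and *Klre1* did not pass the filter and had 0 or 1 count in each of *K-Setd2KO* 2, 3 and 4, against 2 to 18 counts in each control. *K-Setd2KO* 1 had 7 of *Ncr1*, 0 of *Klrb1c* and 4 of *Klre1*. Over all 15 genes, *K-Setd2KO* 1 was below every control for 6, inside the control range for 7 and above every control for 2. The latter were *Klrc1* and *Klra8*, which did not pass the filter either. Of 8 genes for chemokines that attract T cells 7 were tested (median -1.93), and *Ccl21a* was called (-1.19 ± 0.30, adjusted p = 0.0344), but no gene of this list was called without *K-Ctrl* 2 or without both tumors.

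The medians and calls of these lists moved with the tumors that stood apart. Without *K-Ctrl* 2 the median log2 fold change was -0.68 for receptor constant genes, -0.88 for signaling genes, -0.48 for transcription factors, -1.54 for homing and survival receptors, -0.22 for regulatory T cell genes, -0.65 for cytotoxic effectors, -1.32 for natural killer genes and -1.25 for chemokines. Without *K-Setd2KO* 1 the same medians were -2.81, -2.31, -0.88, -2.37, -1.19, -1.71, -2.51 and -2.44. All of them remained negative. The number of genes tested in a list differed by at most 1 between these fits. In that order, 1, 3, 2, 3, 0, 0, 2 and 0 genes were called lower without *K-Ctrl* 2 (5.15% of all genes tested there). The counts were 2, 4, 2, 6, 0, 2, 3 and 1 without *K-Setd2KO* 1 (6.03%), and 0, 3, 0, 3, 0, 1, 1 and 0 without both (2.66%). With sex as a term the counts were 3, 10, 3, 6, 1, 1, 3 and 4 (5.25%).

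The lists for other cells differed in how many members were called. Of 8 pan-leukocyte genes 7 were called lower (median -1.75), and their summed level spanned 526 to 994 CPM in *K-Ctrl* and 222 to 280 CPM in *K-Setd2KO*, without overlap. *Laptm5*, a lysosomal protein of blood cells, had the smallest p (-1.80 ± 0.20, SE, edgeR adjusted p = 0.00506). *K-Setd2KO* 1, whose CD3 genes were at control level, was below all controls for this list at 280 CPM. Of the 8 genes 7 were each below all controls in this tumor. Its summed receptor signaling genes (79.2 CPM against 131 to 301) and homing and survival receptors (100.2 CPM against 149 to 328) were also below all controls, but gene by gene 15 of 20 and 5 of 12 were inside the control range. Among these was *Il7r*, the interleukin-7 receptor gene, at 13.8 CPM against 13.4 to 41.9 CPM, while *S1pr1* alone gave 236 CPM of the homing sum in *K-Ctrl* 1. Its B cell sum was inside the control range (36.0 CPM against 35.6 to 113). Macrophage genes were called lower for 6 of 10 (median -1.69, led by *Mrc1*), dendritic cell genes for 3 of 8 tested (-1.62, led by *Itgax*), B cell genes for 1 of 7 tested (-2.14, *Cd22*), endothelial genes for 2 of 8 (-1.42, led by *Cdh5*), mast cell and basophil genes for 2 of 3 tested of 10 listed (-2.28, *Kit* and *Gata2*) and neutrophil genes for 1 of 7 tested (0.51, *Mmp8*). Plasma cell genes had 1 called higher of 5 tested (0.06, *Sdc1*, which epithelium also expresses), and epithelial genes had 2 called higher of 10 (0.39, *Epcam* and *Krt18*). Of 6 immature thymocyte genes, which would mark thymus tissue, only *Cd1d1* was tested and it was not called (-0.90 ± 0.33, edgeR adjusted p = 0.103). *Rag2* had 0 counts in every tumor, whereas *Rag1* was above the filter level in 1 control. *K-Setd2KO* 1 was below every control for *Dntt*, so each control had counts of that gene. The other tested mast cell and basophil gene, *Hdc*, had a log2 fold change of 0.72 and was not called, and the summed level of all 10 was 187 to 365 CPM in the controls, 553 and 618 CPM in *K-Setd2KO* 1 and 4 and 77.0 and 84.3 CPM in *K-Setd2KO* 2 and 3. Some of these calls were lost in other fits. *Mmp8* was not called without *K-Ctrl* 2, without *K-Setd2KO* 1, without both or with sex as a term, where the neutrophil median was -0.69. With sex as a term 0 endothelial and 0 mast cell and basophil genes were called lower, and without both tumors 0 plasma cell and 0 epithelial genes were called higher. Pan-leukocyte genes had 6 to 8 and macrophage genes 5 called lower in these 4 fits. The part of these other cells in the values of the 10 genes was not tested.

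**Figure D4:**
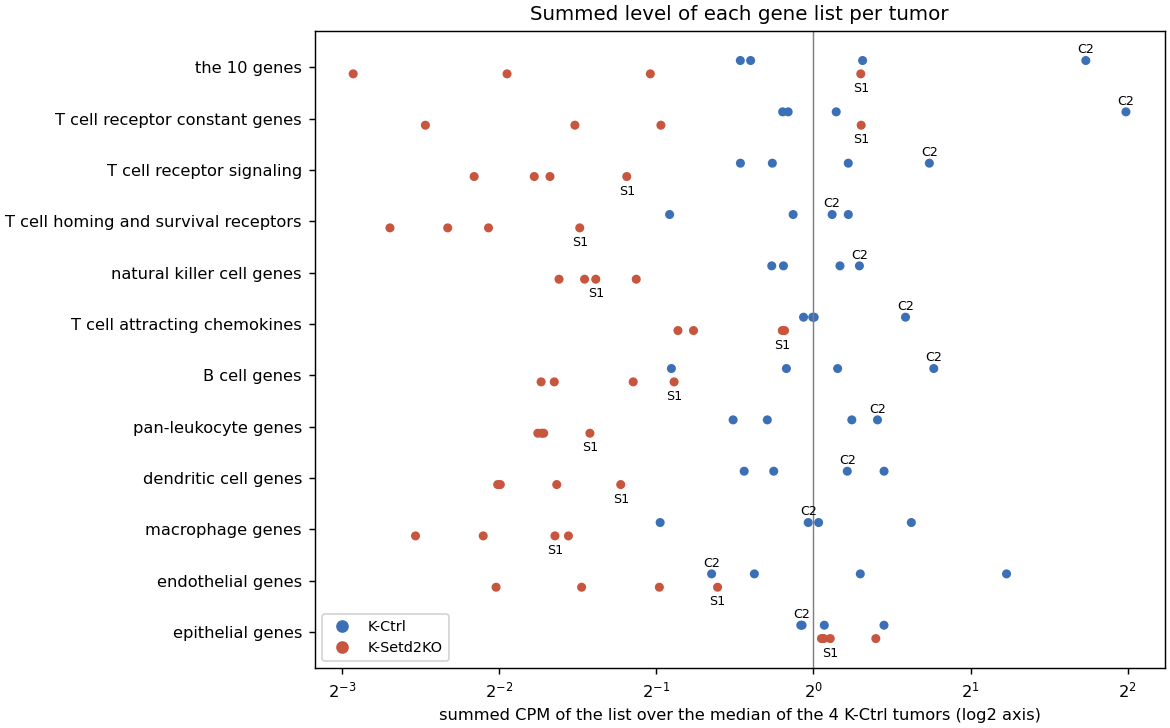
Summed CPM of 12 gene lists in each tumor, divided by the median of the 4 *K-Ctrl* tumors (x axis, log2 scale; blue *K-Ctrl*, red *K-Setd2KO*). *K-Ctrl* 2 (C2) and *K-Setd2KO* 1 (S1) are marked; S1 lies within the control range for the 10 genes, the T cell receptor constant genes, the epithelial genes, the B cell genes and the endothelial genes, and below every control for the other 7 sums, in which abundant genes weigh most.

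Among the genes whose log2 CPM over the 8 tumors was most like the mean of the 3 CD3 genes were *Ddx58* (Pearson's r = 0.987), *Gimap7* (0.987), *Ccl2* (0.978), *Cd6* (0.975), *Blnk* (0.973), *Il7r* (0.969), *Gimap3* (0.966), *Gm9403* (0.966) and *Trac* (0.966). *Cd6*, *Il7r*, *Trac* and the 2 *Gimap* GTPase genes are known from T cells, whereas *Ddx58* encodes the RNA sensor RIG-I, *Ccl2* a monocyte chemokine and *Blnk* a B cell adaptor. The median r to the CD3 mean was 0.884 over the 17 tested receptor signaling genes, 0.732 over pan-leukocyte genes, 0.678 over macrophage genes and -0.31 over epithelial genes, against -0.02 over all tested genes. The genes most like *Gzmb* were *Akr1b3* (0.966), *Upp1* (0.959), *Ccl9* (0.952), *Cfp* (0.943) and *Ccl12* (0.918). None of these 5 is a granule gene, and *Gzmb* had at most 26 counts in any tumor. These are descriptions over 8 points that share library depth and group.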

How the data were processed

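The deposited table gives unnormalized counts, which are whole numbers per gene and tumor. The submitters' processing notes name STAR 2.5.2b, featureCounts 1.5.0-p1 and GRCm38.p4; the annotation release and the strand setting of counting are not given in the sources used here. Libraries came from a stranded poly(A) mRNA kit. Symbols came from GENCODE M21, in which 48349 of 48709 identifiers (99.26%) were found.

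Counts were analysed in R 4.3.3 with edgeR 4.0.16 (filterByExpr, TMM, robust quasi-likelihood test for genotype, Benjamini-Hochberg adjustment over 14929 genes, threshold 0.05). SE is the absolute log2 fold change over the square root of F. CPM used TMM-scaled library sizes, and log2 CPM a prior count of 2. The test was first checked on simulated counts. DESeq2 1.42.0 (the study's tool), limma voom 3.58.1 and other factors, filters and sample sets were alternatives. Single values were compared by two-sided exact permutation over the 70 assignments of 4 and 4 tumors. Intervals are exact at 95% and cover counting error only. No pair of libraries within a group was a copy, since the lowest chi-square per degree of freedom was 30.5.

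Members and lists were chosen with earlier results of these data known. Beyond the 10 genes, the text names for each list the tested gene with the smallest p and any called with the opposite sign, and the genes most correlated with CD3 (10) and *Gzmb* (5). Other names were chosen after their values were seen, and some items are not reported here.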

Additional observations from a re-analysis of the deposited data

Results flagged for a closer look

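In 9 of 32 groups of 4 tumors examined (10 genes and 6 ratios in each genotype) 1 tumor lay far from the other 3 by Dixon's gap ratio; chance alone flags about 1 in 20 such groups. *K-Ctrl* 2 was far above the other controls for *Cd3d* (7.82 CPM), *Cd3e* (23.4 CPM) and *Cd3g* (11.1 CPM). *K-Setd2KO* 1 was far above its group for *Cd4* (7.96 CPM) and *Gzmb* (1.34 CPM), and its log2 ratios of *Foxp3* to *Cd4* (-1.34, below its group) and of *Gzmb* to *Cd3e* (-1.95, above its group) also stood apart. For *Gzma* the tumors that stood apart were low ones, *K-Ctrl* 4 at 0.268 CPM (3 counts) and *K-Setd2KO* 4 at 0 CPM, where 3 counts would be 0.513 CPM. These genes vary together across tumors, so the 9 are not independent. That *K-Ctrl* 2 is high for T cell genes was known when the genes were chosen. The gaps for *Gzmb* in *K-Setd2KO* and for its ratio to *Cd3e* rest on 3 tumors with 0 counts of *Gzmb*, and the limit for *Gzma* in *K-Setd2KO* 4 is above the values of its group mates. What sets the 2 high tumors apart was not tested.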

How the results depend on the processing

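None of the 10 genes was called higher in any fit run. None was called lower in the main fit, with RLE, upper-quartile or total-count scaling, without a filter, or in limma voom. Nor was any with a minimum of 10 counts per tumor, which left 1 of the 10 genes, *Cd3e*. 3 were called with sex as a term and 1 in DESeq2 (*Cd3e*). When the filter and *K-Setd2KO* 1 were dropped together, 1 was called (*Cd3g*, -2.77, edgeR adjusted p = 0.0487). This last fit was chosen after seeing the data, and it called 895 of 27992 genes lower. Leaving out 1 tumor at a time gave 0 to 1 calls, the 1 being *Gzma* without *K-Ctrl* 4 (-2.32, edgeR adjusted p = 0.0406). Of the 15449 genes tested without *K-Ctrl* 4, 1284 were called lower. *Gzma* passed the filter only in some of these sets. No *K-Setd2KO* tumor was above the filter level for *Gzma*. It could thus be tested only through the controls, and its call is given as a description. The log2 fold changes of the 7 tested genes stayed negative in every setting. Of the 6 ratio differences, 5 changed sign in at least 1 setting and that of *Foxp3* to *Cd4* did not. With 2 counts added in place of 0.5, *Gzmb* to *Cd3e* became 0.89 and *Gzma* to *Gzmb* -0.47. Leaving out 1 tumor moved *Cd8a* to *Cd4* between -0.55 and 0.12, *Cd8b1* to *Cd8a* between -0.77 and 1.32, *Cd3e* to *Ptprc* between -0.30 and 0.51, *Gzmb* to *Cd3e* between -0.92 and 0.066, and *Gzma* to *Gzmb* between -0.56 and 1.18; *Foxp3* to *Cd4* stayed between 0.39 and 1.02. With the replicate block, 0 of the 10 genes were called, as in the main fit, and over all genes 1341 were called against 1897. Samples with the same number did not deviate together (r = -0.07, -0.03, 0.19 and -0.02), and not every tumor correlated best with its own number, so they share only a number; sign flips of 4 pairs cannot give a p below 0.125. DESeq2 called 3193 genes in all. Without both tumors that stood apart 528 genes were called in all, and 0 of the 10. The granule genes had 57 to 83 counts in all, which limits the precision of their values.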

Other observations

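Rearranged T cell receptor genes gave a further view of T cell mRNA; these genes were chosen after seeing the data. Of 108 alpha chain variable segments (*Trav*), 2, 22, 11 and 11 had a count in *K-Ctrl* 1 to 4 and 9, 0, 1 and 1 in *K-Setd2KO* 1 to 4. Of 22 beta chain segments (*Trbv*), 5, 15, 11 and 8 had a count in *K-Ctrl* 1 to 4 and 7, 3, 1 and 2 in *K-Setd2KO* 1 to 4. Short segments share sequence, so their counts are uncertain.

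Counts of some further genes, also named after their values were seen, varied between tumors. *Eomes*, a transcription factor of cytotoxic lymphocytes, had 52 counts in *K-Setd2KO* 1 and at most 10 in any other tumor, and *Prf1*, which encodes perforin, had 26 in that tumor against at most 10. *Trdc* had 7 counts in *K-Setd2KO* 1 and 15 to 21 in each control. *Mcpt8*, a basophil protease, had 37 counts in *K-Setd2KO* 1, 20 in *K-Setd2KO* 4 and 0 or 1 in each of the other tumors. These counts are not scaled for depth. *K-Setd2KO* 1 held 20185390 counts in all and *K-Setd2KO* 4 held 5806599, so raw counts understate *K-Setd2KO* 4 beside *K-Setd2KO* 1. *Ifng*, the interferon gamma gene, had 25 counts in *K-Ctrl* 2, 7 in *K-Ctrl* 3, 8 in *K-Setd2KO* 1 and 0 in each of the other tumors.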
